A study of Homo sapiens with 72 samples.

Results

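Histone genes encode the small basic proteins around which DNA is wound into nucleosomes. The core particle is built from H2A, H2B, H3 and H4, and H1 binds the DNA between the particles. The canonical genes lie in clusters, are copied mainly while a cell replicates its DNA, and give mRNAs that end in a stem-loop in place of a poly(A) tail, whereas variant genes such as H2AFX, H2AFZ and H1F0 lie alone in the genome and are transcribed outside S phase as well. In this report the histone genes are the probes of the array whose gene name begins with HIST1H, HIST2H, HIST3H or HIST4H (canonical) or with H2AF or H1F (variant). The rule gave 104 probes for 76 genes, of 41000 probes for 30140 gene names on the array, with 88 probes for 65 canonical genes and 16 probes for 11 variant genes.

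The cells were IMR-90, a strain of normal human lung fibroblasts, used young, and the labels name no genetic change in any group. Irradiated cells grew on the thin Mylar base of an outer dish and received 50 cGy of α-particles (4He ions), bystander cells grew on a thicker inner base in the same dish that the particles did not cross, and control dishes were sham irradiated at 0 cGy. Every group was harvested at 6 times, from 0.5 to 24 hours, in 4 independent experiments, which made 24 arrays per treatment and 72 arrays in all, and the irradiated and bystander cells of an experiment were compared with the same control array. Irradiated, bystander and control cells of 1 experiment came from 1 pool, and all of them are 1 cell strain, so the spread between experiments is not a spread between donors. On each array 65.65% to 76.85% of the spots were well above background, and the number of arrays, not a read depth, limits the precision.

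Values are log2 intensities after every array was scaled to the same 75th percentile. A ratio is the treated level less the control level of the same experiment, so that 1 is a doubling, and is given as mean ± SD over the 4 experiments. A probe was called when the adjusted p of limma, fitted at each time point with experiment as a block and adjusted over the 25236 probes tested, was below 0.10. The arrays of a time point lay on 3 slides of 4 arrays each, which the fit left out. With slide as a fixed block in place of experiment, which also gives up the pairing, 0 of the 30 called histone results stayed called. With experiment kept and slide added as a random block 26 did. A fit with both as fixed blocks was not run. Cy3-labelled cRNA was made from total RNA with a linear amplification kit whose first strand is primed at poly(A), so that transcripts without a poly(A) tail are copied less well, and the part of this in the canonical values was not tested. A lower share of cells in S phase and less histone RNA per cell cannot be told apart.

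The cell type given in the labels was checked first. All 14 probes for the fibroblast markers, collagens, vimentin, decorin and others, were well above background on 72 of 72 arrays. Markers of other cells were measured in part, with 3 of 7 epithelial, 3 of 5 endothelial and 3 of 6 blood cell genes passing the filter on low or non-uniform signal. Among the dim ones were CDH1, the epithelial cadherin, well above background on 10 arrays, PECAM1, an endothelial adhesion protein, on 2 and both probes for PTPRC, the leukocyte antigen CD45, on 1 and 4. Well above background on all 72 arrays were KRT19, MUC1 and SFTPC of the epithelial list, at least 1 probe each for VWF, KDR and TEK of the endothelial list and for CD3E, CD68 and ITGAM of the blood list, and HBA1 was so on 68. The blood cell genes that passed were CD3E, CD68 and HBA1. ITGAM did not pass although it was not dim, since the filter also removes non-uniform probes. The part of such cells in the RNA was not tested.

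Several of the probes were nearly the same sequence, which bears on what each of them measures. All 104 probes had a 60-base sequence in the deposited annotation. Among the 83 probes that entered the fits, 25 matched a probe for another histone gene at 85% identity or more over at least 40 bases, among them 9 of 21 H2B probes, 7 of 16 H3 probes, 5 of 11 H4 probes, 3 of 18 H2A probes, 1 of 13 variant probes and none of 4 H1 probes. Probes of 3 such pairs are shown because the H2B, H3 and H2A medians below include families of this kind. Capitals mark the bases that differ from the partner, or lie beyond its end.
HIST1H2BE: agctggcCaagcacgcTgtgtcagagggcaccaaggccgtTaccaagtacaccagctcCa
HIST1H2BF: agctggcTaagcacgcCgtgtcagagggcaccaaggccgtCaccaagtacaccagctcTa
HIST1H3B: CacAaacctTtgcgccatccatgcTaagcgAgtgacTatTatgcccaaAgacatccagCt
HIST2H3D: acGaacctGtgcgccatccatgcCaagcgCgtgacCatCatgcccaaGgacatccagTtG
HIST1H2AD: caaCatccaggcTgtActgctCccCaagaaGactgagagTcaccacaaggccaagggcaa
HIST1H2AK: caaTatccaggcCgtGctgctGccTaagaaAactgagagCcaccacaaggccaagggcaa

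The HIST1H2BE and HIST1H2BF probes differed at 4 of 60 bases, and the HIST1H2AD and HIST1H2AK probes at 7 of 60. The HIST1H3B and HIST2H3D probes overlapped by 59 bases and differed at 8 of them (86.4% identity). How far a transcript of 1 gene bound the probe of another was not tested, so the named gene of such a probe is uncertain and probes of 1 family are not independent measurements. Among histone probes sharing a run of 12 bases, none reached 85% with the probes for HIST1H2AC, HIST1H2BK, HIST1H3I, HIST1H4B, H1F0, H2AFX or H2AFY2, described by sample below. The HIST1H3I probe came near, with 83.3% of 54 bases shared with HIST1H3E. So did the HIST1H3D probe said below to have no close match, with 81.6% of 49 bases shared with HIST1H3H. Probes were compared with probes only, so a match to the transcript of another gene was not looked for.

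Letters of the histone stem-loop were found in few probes. The pattern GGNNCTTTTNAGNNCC, where N is any base, was in 3 of 41000 probes, of which 2 were histone probes. They were the first HIST2H2AA4 probe, with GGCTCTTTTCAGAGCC, and the HIST1H4K probe, with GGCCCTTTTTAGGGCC. These 2 probes reach the 3′ end that the processed mRNA keeps.

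Of the 104 probes, 83 (79.8%) passed the filter, which asked for a signal well above background and uniform on at least 90% of the 72 arrays, and they stood for 67 of the 76 genes. On the whole array 61.6% of probes passed. Of the canonical probes 70 of 88 passed and of the variant probes 13 of 16. Well above background on all 72 arrays were 77 of the 104 probes, and 5 were well above background on none.

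The 9 genes with no passing probe were HIST1H1B, HIST1H1T, HIST1H2AL, HIST1H2BA, HIST1H4A, HIST1H4G, HIST4H4, H1FOO and H2AFB2. HIST1H1T was well above background on 1 array, HIST1H2BA on 0 arrays and H1FOO on 4. H2AFB2 was so on 59 arrays (23 control, 14 irradiated and 22 bystander). HIST1H1B, a canonical H1 gene, was well above background on 40 arrays (12 control, 17 irradiated and 11 bystander). The other 11 failing probes belonged to genes of which another probe passed. No histone probe was saturated on any array.

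The H2B probes were nearly all below control, and the H3 probes mostly above it, in both treatments. The median ratio of the 21 H2B probes was below 0 in all 12 comparisons with control, from -0.20 (bystander, 0.5 hours) to -0.62 (bystander, 6 hours). Between 17 and 21 of the 21 probes lay below 0 in each of these, and all 21 did so in bystander cells at 4 and at 6 hours. The median of the 16 H3 probes was above 0 in 11 of the 12 comparisons, the exception being irradiated cells at 1 hour with -0.08, and it reached 0.41 in irradiated cells at 2 hours. Both treatments are set against the same control arrays, and that of experiment 1 at 6 hours was low for H3 probes (-1.03 against -0.157 to -0.0295 in the other controls, as deviations from the mean of each probe). At 6 hours the median H3 ratios of the 4 experiments were 0.70, 0.01, 0.27 and 0.63 in irradiated and 1.25, -0.38, 0.08 and 0.20 in bystander cells. Without experiment 1 the 6-hour H3 median was 0.25 in irradiated and -0.06 in bystander cells. Over all 25236 probes the median stayed between -0.04 and 0.05.

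Few of these probes passed the test, so the shift of a type as a whole is given as a description. Of the H2B probes 1 was called in 1 comparison and none in the other 11, although 20 of 21 had an unadjusted limma p below 0.05 in bystander cells at 4 hours, where 15.9% of all probes did. In irradiated cells at 1 hour 18 of 21 H2B probes did, against 26.4% of all probes, at a time when no probe of any kind was called. The number was also 12 in irradiated cells at 4 hours and 14 in bystander cells at 6 hours, where 15.1% and 14.3% of all probes had such a p. In the other 8 comparisons it was between 0 and 3 of 21, a share below that of all probes, for example 0 in irradiated cells at 0.5 hours, where 26.3% of all probes had one.

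The H2B medians varied widely between experiments. At 0.5 hours the median H2B ratio of irradiated cells was 0.19 and 0.41 in experiments 1 and 2 and -1.12 and -0.56 in experiments 3 and 4, which gives -0.27 ± 0.70. In bystander cells at 4 hours the 4 medians were -0.61, 0.06, -0.97 and -0.87, or -0.60 ± 0.46, and at 6 hours 0.27, -0.40, -1.11 and -1.29, or -0.63 ± 0.71. All 4 experiments were below 0 only in irradiated cells at 1 hour (-0.45 ± 0.28) and at 4 hours (-0.44 ± 0.28), among the 12 comparisons. Over the 72 arrays the median correlation between pairs of H2B probes was 0.83, against 0.53 for H3 probes, 0.54 for H2A probes, 0.29 for H4 probes and 0.08 for variant probes, where the points share arrays and, for near-identical probes, sequence.

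**Figure D1:**
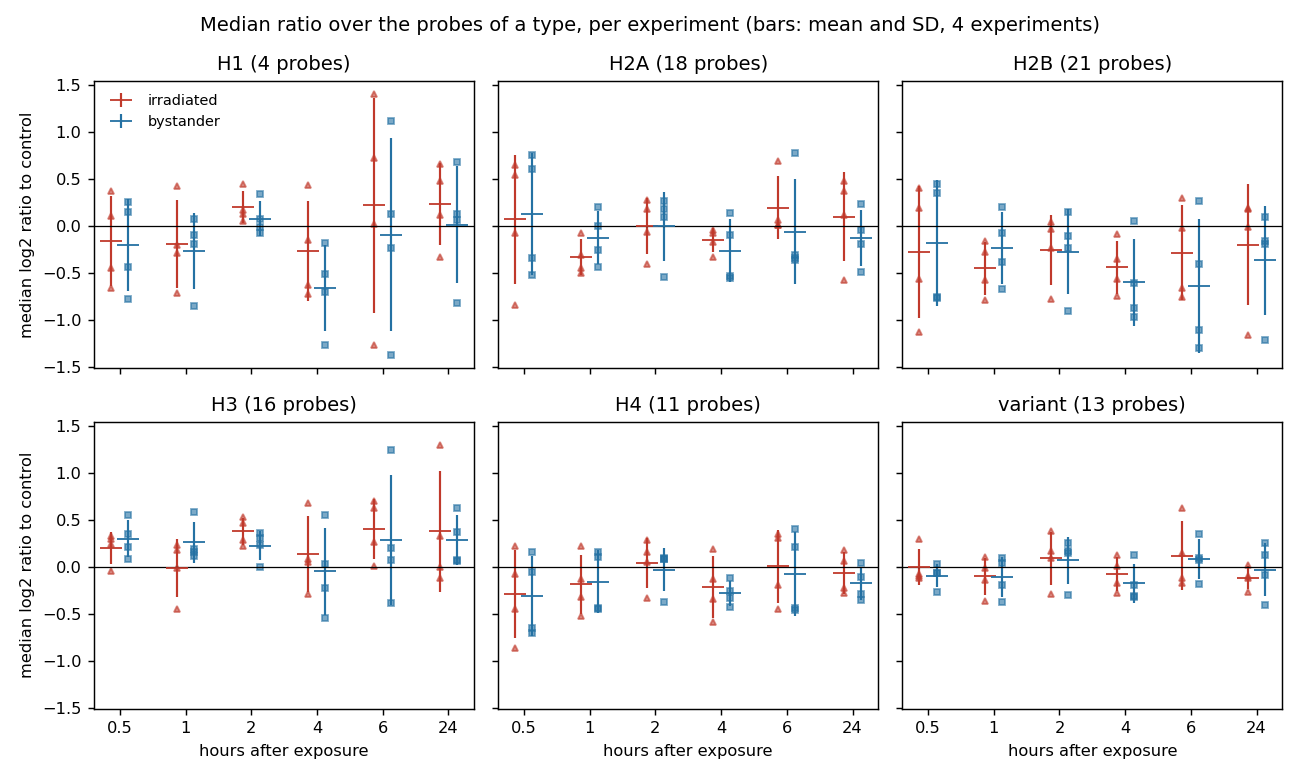
Median log2 ratio to control over the probes of each histone type (vertical axis) against hours after exposure, with a point for each experiment and bars for the mean and SD of 4 experiments. H2B means lie below 0 at all 6 times in both treatments, with a spread between experiments that crosses 0 at most of them, and H3 means lie above 0 in irradiated cells at 2 hours in all 4 experiments.

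The H3 probes were the most uniform at 2 hours. The median ratio in irradiated cells was 0.46, 0.22, 0.53 and 0.29 in the 4 experiments, or 0.37 ± 0.15, and in bystander cells 0.30, 0.23, 0.36 and 0.00, or 0.22 ± 0.16. Of the 16 H3 probes 15 lay above 0 in either treatment at that time. The exception was the HIST1H3D probe that resembles a HIST1H3F probe (91.1% of 45 bases), with -0.34 ± 0.85 in irradiated and -0.64 ± 0.22 in bystander cells and no call, while the other HIST1H3D probe was called higher in irradiated cells.

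Scaling of the arrays moves the level of all these medians together. Without scaling, which is how the study itself left the arrays, the median over all probes moved to -0.38 in irradiated cells at 2 hours and to 0.42 in bystander cells at 4 hours. The H2B medians were then still below 0 in all 12 comparisons (-0.84 to -0.04), and the H3 median at 2 hours was 0.01 in irradiated and -0.01 in bystander cells. Of the 11 H3 medians above 0, 8 stayed above 0 without scaling and 3 turned to between -0.03 and -0.01 (irradiated at 6 and 24 hours, bystander at 2 hours), while that of irradiated cells at 1 hour became 0.13. With normexp background correction the H2B median of bystander cells at 0.5 hours was 0.02, and the other 11 stayed below 0.

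The promoters of the 2 sets differ in sequence. RefSeq promoter sequences of build GRCh38.p14, matched by symbol, were at hand for 65 of the 76 genes. In the 250 bases before the start, on either strand, the octamer ATTTGCAT was in 8 of 12 H2B promoters (66.7%) and 11 of 14 H2A promoters (78.6%), in 0 of 11 H3, 0 of 12 H4, 0 of 6 H1 and 0 of 10 variant promoters, and in 1.68% of all 27305 promoters. The CCAAT letters were in all H1, H2A, H2B and H3 promoters and in 25% of H4 promoters, against 32.7% of all promoters, and TATAAA was in 61.5% of the histone promoters against 11.4%. The octamer is the site bound by the POU factor Oct-1, and CCAAT is the site of the factor NF-Y. A match is a run of letters and not a measured site. The 150 bases before the start of 3 canonical genes are shown, 5′ to 3′ on the strand of the gene, with these letters in capitals. HIST1H2AC (now H2AC6, chr6:26124022-26124171, plus strand) and HIST1H2BK (now H2BC12, chr6:27146856-27147005, minus strand) had the largest called falls among canonical genes, and HIST1H3B (now H3C2, chr6:26032100-26032249, minus strand) was called higher.
HIST1H2AC: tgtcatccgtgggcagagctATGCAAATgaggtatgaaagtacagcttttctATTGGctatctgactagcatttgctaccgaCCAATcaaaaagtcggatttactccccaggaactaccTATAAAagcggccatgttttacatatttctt
HIST1H2BK: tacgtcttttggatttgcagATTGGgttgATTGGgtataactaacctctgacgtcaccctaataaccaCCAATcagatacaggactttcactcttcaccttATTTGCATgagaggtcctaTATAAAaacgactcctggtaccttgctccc
HIST1H3B: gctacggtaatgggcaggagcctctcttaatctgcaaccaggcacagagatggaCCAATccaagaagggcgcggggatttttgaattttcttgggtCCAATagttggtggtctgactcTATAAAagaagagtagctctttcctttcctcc

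The octamer stands in the HIST1H2AC promoter on the reverse strand, as ATGCAAAT, and in the HIST1H2BK promoter as ATTTGCAT. The HIST1H3B promoter holds CCAAT and TATAAA but not the octamer. The median of the 18 H2A probes in irradiated cells was 0.06, -0.36, 0.02, -0.13, 0.22 and 0.16 in the order of the time points, beside -0.27, -0.46, -0.26, -0.45, -0.33 and -0.21 for the H2B probes. In bystander cells it was 0.05, -0.11, -0.02, -0.29, -0.02 and -0.08, beside -0.20, -0.22, -0.25, -0.61, -0.62 and -0.40.

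In irradiated cells at 2 hours, 14 of the 83 histone probes were called (16.9%), where 6.14% of all probes tested were. Of these 13 were higher and 1 lower than control, against 3.5% of all probes called higher and 2.64% called lower. Canonical genes gave 10 of the higher probes, all of types H1, H3 and H4, and variants gave 3. The median of the 83 ratios was 0.03, and of all probes 0.02. Calls over the whole array depended on single experiments and so did these: without experiment 1, 2 or 3 no histone probe was called, where 0.103%, 0.0951% and 0.238% of all probes were, and without experiment 4 the count was 28, with 26 higher, where 19.4% of all probes were called. Without scaling 30 histone probes were called and 0 were higher, where 27.4% of all probes were called and the median over them was -0.38.

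HIST1H4B, 1 of the many genes for H4, had log2 levels of 10.80, 11.24, 10.98 and 11.75 in the control cells of experiments 1 to 4, 11.95, 11.82, 11.42 and 12.35 in irradiated cells and 11.33, 11.60, 11.22 and 12.05 in bystander cells. Irradiated cells were above their own control in 4 of 4 experiments, although the control of experiment 4 lay within the irradiated range. The ratio was 0.69 ± 0.31 (limma adjusted p = 0.0241). HIST1H4D had a ratio of 0.76 ± 0.40 (adjusted p = 0.0565), HIST1H4L by 0.58 ± 0.40 (adjusted p = 0.0585) and HIST1H4C by 0.51 ± 0.45 (adjusted p = 0.0931), each in 4 of 4 experiments.

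The other H4 genes measured did not share this. The remaining 7 of 11 H4 probes had no call in irradiated cells at 2 hours, and the H4 median was -0.05. HIST1H4H, an H4 gene named in any case, had -0.25 ± 0.34 (limma adjusted p = 0.36) and was below control in 4 of 4 experiments. At 0.5 hours all 11 H4 probes were below 0 in both treatments.

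HIST1H3I had levels of 10.95, 11.15, 11.05 and 11.28 in control cells at 2 hours, 11.52, 11.58, 11.73 and 11.84 in irradiated cells and 11.51, 11.71, 11.71 and 11.60 in bystander cells. Neither treated group overlapped the control group. The ratio was 0.56 ± 0.10 in irradiated cells (limma adjusted p = 0.0201) and 0.52 ± 0.14 in bystander cells (adjusted p = 0.0815). It was the only histone probe called in bystander cells at 2 hours, or 1.2% of the 83, where 0.23% of all probes were called, 0.198% higher and 0.0317% lower. Leaving out experiment 4 gave 17 histone probes called in bystander cells at that time, 16 of them higher, where 12% of all probes were called, and leaving out any other experiment gave 0, where at most 0.0713% were.

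Other H3 genes rose in irradiated cells at 2 hours. HIST1H3D, by the probe with no close match, had 0.61 ± 0.21 (limma adjusted p = 0.0258), the shown HIST1H3B probe 0.56 ± 0.29 (adjusted p = 0.0764), HIST1H3G 0.43 ± 0.15 (adjusted p = 0.0585) and HIST1H3H 0.53 ± 0.36 (adjusted p = 0.098). HIST1H3H was higher in 3 of 4 experiments, and the others in 4 of 4. HIST1H1A, a linker histone gene, rose by 0.69 ± 0.39 (adjusted p = 0.0575), and the other 3 H1 probes had ratios from 0.03 to 0.22 and no call.

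HIST1H2BK was the only histone probe called lower in irradiated cells at 2 hours, where 39 of the 83 ratios were below 0. Its gene is 1 of the H2B genes also known to give polyadenylated transcripts. Levels were 12.03, 12.31, 11.82 and 12.32 in control cells, 11.75, 11.90, 11.25 and 11.09 in irradiated cells and 11.70, 11.86, 11.16 and 11.02 in bystander cells. The ratio was -0.62 ± 0.42 in irradiated cells (limma adjusted p = 0.0708) and -0.68 ± 0.43 in bystander cells (adjusted p = 0.14), and the irradiated and control groups overlapped. At the other 5 times the ratio lay between -0.84 and -0.54 in both treatments with no call.

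**Figure D2:**
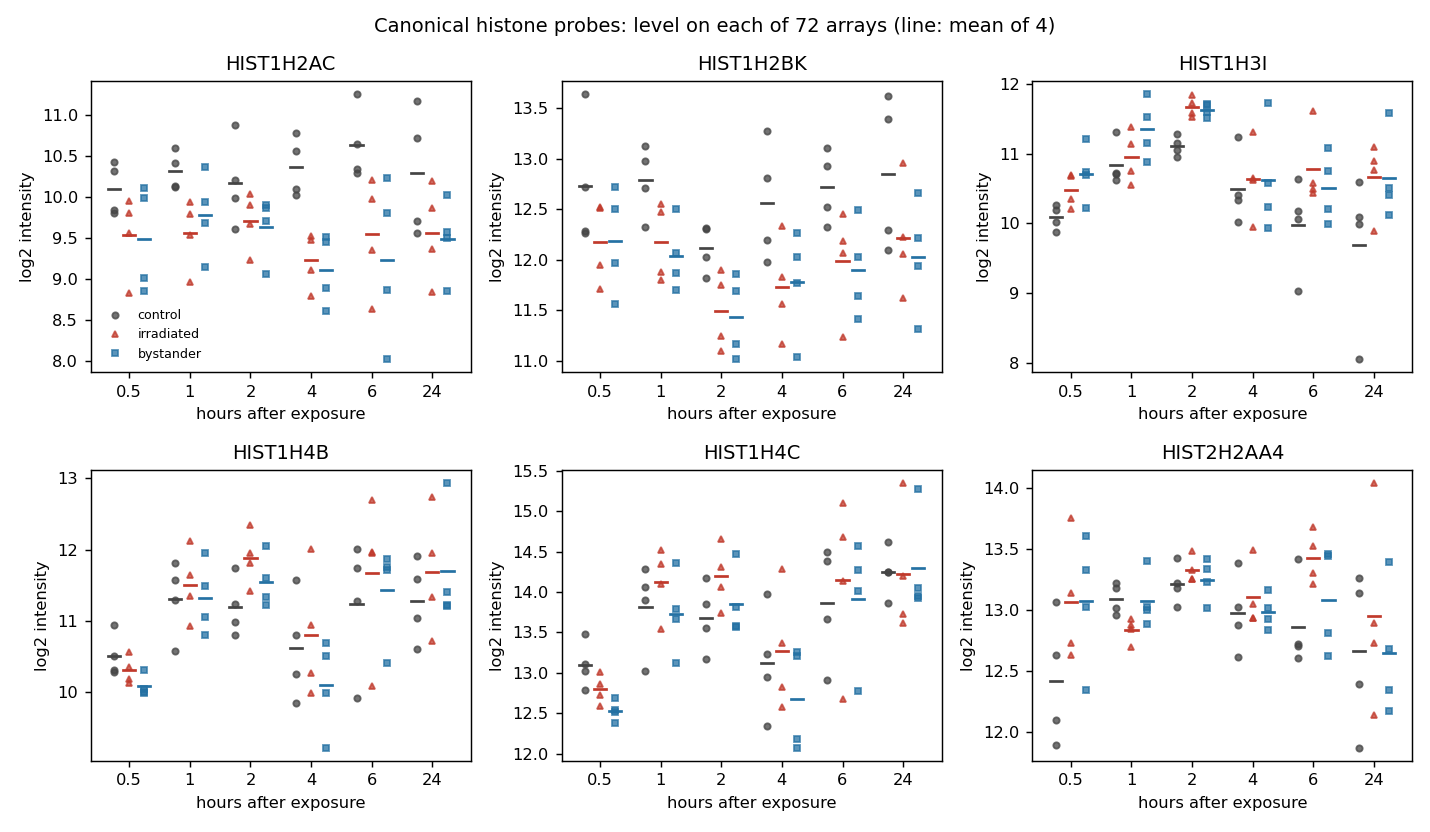
Log2 intensity of 6 canonical histone probes (vertical axes, each probe on its own scale) on each of 72 arrays against hours after exposure, with a point per array and a line at the mean of 4. HIST1H3I arrays of both treatments lie above all 4 control arrays at 2 hours, and HIST1H2AC arrays of both treatments lie below all 4 control arrays at 4 hours.

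Among the variants, H2AFX and H2AFZ rose in irradiated cells at 2 hours. H2AFX encodes H2A.X, which is phosphorylated around DNA double-strand breaks, and its mRNA exists in both the stem-loop and the polyadenylated form. Its levels were 13.99, 14.22, 13.61 and 14.30 in control cells, 14.52, 14.70, 13.69 and 14.68 in irradiated cells and 14.24, 14.52, 13.63 and 14.80 in bystander cells. The groups overlapped, while each irradiated array was above the control of its own experiment. The ratio was 0.36 ± 0.20 (limma adjusted p = 0.0917), and in bystander cells 0.26 ± 0.20 (adjusted p = 0.27). At the other 5 times no call was made, with ratios from -0.22 to 0.43 in irradiated cells.

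H2AFZ encodes H2A.Z, a variant found at gene starts. One of its 3 probes had levels of 14.04, 13.98, 13.69 and 14.06 in control, 14.44, 14.30, 13.99 and 14.37 in irradiated and 14.26, 14.25, 14.07 and 14.37 in bystander cells at 2 hours. The irradiated ratio was 0.33 ± 0.04 (limma adjusted p = 0.0601), and the spread between experiments was small beside it. Another H2AFZ probe was called with 0.28 ± 0.12 (adjusted p = 0.0998), and the brightest, with 0.26 ± 0.17 (adjusted p = 0.128), was not. Without scaling the ratios of H2AFX and of both called H2AFZ probes turned to between -0.12 and -0.04, with no call.

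The other variant probes had no call at 2 hours. H2AFV, a close relative of H2AFZ, had 0.17 ± 0.31 by one probe and -0.19 ± 0.30 by the other in irradiated cells, and H2AFJ, an H2A gene outside the clusters, had -0.07 ± 0.51 and 0.07 ± 0.44. Neither gene was called in any of the 12 comparisons.

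At 0.5 hours, 3 of 83 histone probes were called in irradiated cells (3.61%), where 10.3% of all probes were called, 6.62% higher and 3.67% lower. In bystander cells 7 were called (8.43%), where 6.98% were, 4.35% higher and 2.62% lower. The share in irradiated cells was below that of all probes and the share in bystander cells near it. Leaving out any 1 experiment left 0 histone calls in irradiated cells, where 0% to 6.25% of all probes were called. The count in irradiated cells was also 0 without scaling, with normexp background correction and with the authors' table of values, and it was higher with quantile normalization. In bystander cells it left 2 without experiment 3 (4.66% of all probes), 1 without experiment 4 (2.59%) and 0 without 1 or 2 (0.0159% and 0%).

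The called H3 probes at 0.5 hours were all higher. HIST1H3I had levels of 9.88, 10.02, 10.26 and 10.19 in control cells, 10.20, 10.35, 10.70 and 10.68 in irradiated cells and 10.21, 10.70, 11.20 and 10.73 in bystander cells, and only the lowest array of each treated group fell within the control range. The ratios were 0.39 ± 0.08 (irradiated, limma adjusted p = 0.0957) and 0.63 ± 0.26 (bystander, adjusted p = 0.0349). HIST1H3G was called in irradiated cells (0.41 ± 0.14, adjusted p = 0.0998). The HIST1H3D probe with no close match (0.59 ± 0.20, adjusted p = 0.0548), the shown HIST1H3B probe (0.45 ± 0.19, adjusted p = 0.0625) and HIST2H3A (0.40 ± 0.26, adjusted p = 0.0987) were called in bystander cells.

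HIST1H4C and the macroH2A genes were lower at 0.5 hours. HIST1H4C had levels of 13.48, 12.78, 13.02 and 13.11 in control and 12.38, 12.69, 12.55 and 12.51 in bystander cells, which did not overlap, and the ratio was -0.57 ± 0.42 (limma adjusted p = 0.0934). In irradiated cells the levels were 12.58, 12.87, 12.73 and 13.01, and the probe was not called. The same probe was called higher in irradiated cells at 2 hours.

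H2AFY2 and H2AFY encode macroH2A proteins, large H2A variants enriched on silent chromatin. H2AFY2 had levels of 11.31, 11.31, 11.23 and 11.08 in control, 10.89, 10.62, 10.76 and 10.70 in irradiated and 10.90, 10.42, 10.69 and 11.03 in bystander cells, with no overlap between control and either treated group. The ratios were -0.49 ± 0.13 (irradiated, limma adjusted p = 0.0724) and -0.47 ± 0.35 (bystander, adjusted p = 0.089). Its mean ratio lay between -0.57 and -0.23 in all 12 comparisons, and only the 2 at 0.5 hours were called. H2AFY had levels of 13.77, 13.64, 13.85 and 13.79 in control and 13.33, 13.40, 13.44 and 13.46 in bystander cells, which did not overlap (-0.35 ± 0.09, adjusted p = 0.0922), and a ratio of -0.23 ± 0.03 in irradiated cells (adjusted p = 0.18).

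**Figure D3:**
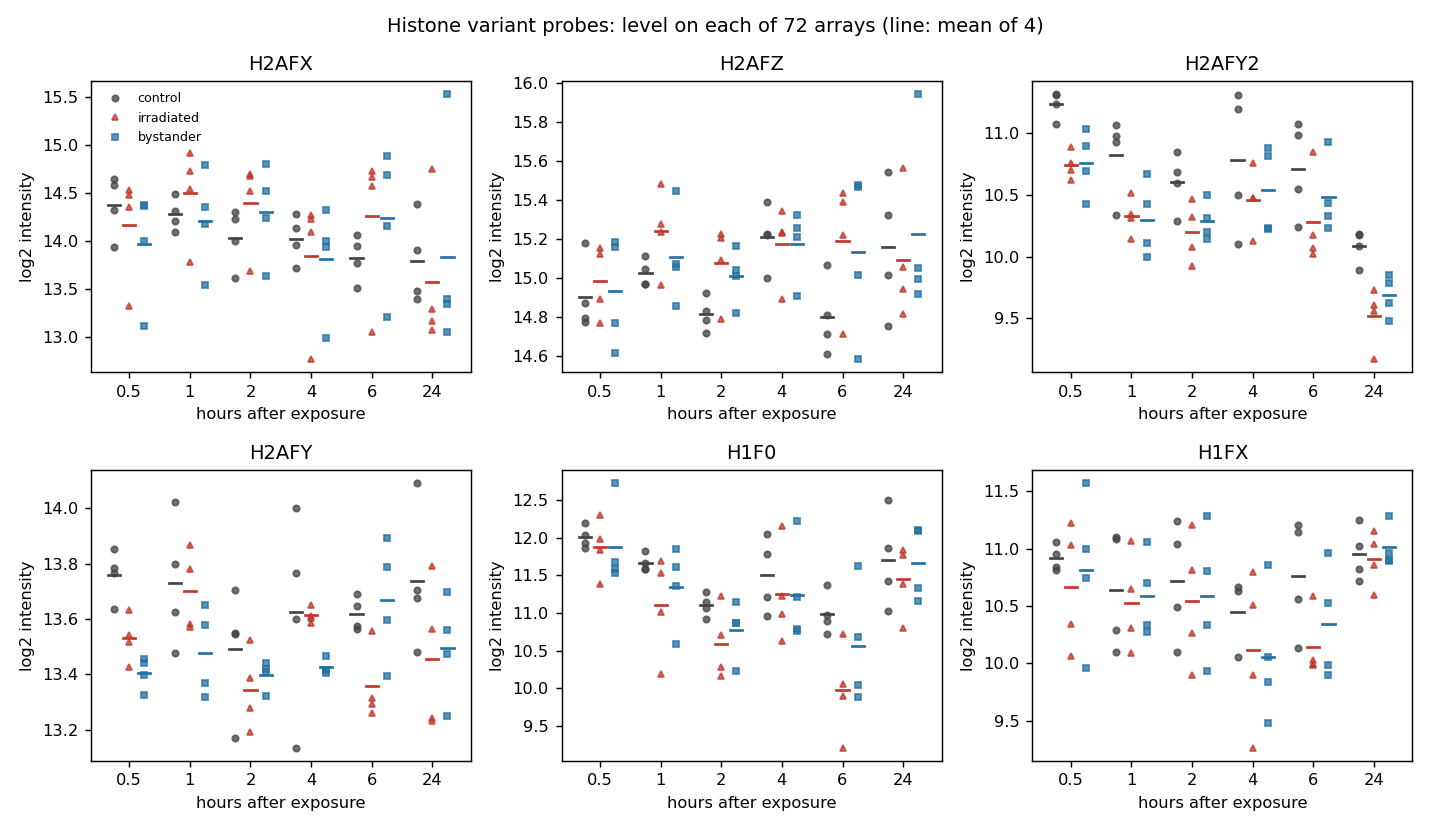
Log2 intensity of the brightest passing probe of 6 histone variant genes (vertical axes, each on its own scale) on each of 72 arrays against hours after exposure, with a point per array and a line at the mean of 4 (the H2AFZ panel shows its brightest probe, which was not called). Irradiated arrays lie below all 4 control arrays for H2AFY2 at 0.5 hours, and for H1F0 at 6 hours 3 of 4 irradiated arrays lie below all control arrays.

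At 1 hour no histone probe was called in either treatment, nor was any probe of the array (0% of 25236). Unadjusted limma p-values below 0.05 were had by 37 of the 83 histone probes in irradiated cells, where 26.4% of all probes had one, and by 7 in bystander cells, where 14.4% did. All 18 H2A probes and 19 of 21 H2B probes had irradiated ratios below 0, with medians of -0.36 and -0.46.

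At 4 hours 1 histone probe was called in each treatment (1.2% of 83), the same probe for HIST1H2AC, a canonical H2A gene, and both calls were lower. Of all probes 1.18% were called in irradiated cells, 0.939% higher and 0.246% lower, and 0.618% in bystander cells, 0.527% higher and 0.0911% lower. Its levels were 10.10, 10.02, 10.56 and 10.78 in control, 9.53, 9.48, 9.12 and 8.79 in irradiated and 9.45, 9.51, 8.89 and 8.61 in bystander cells. Every treated array was below every control array. The ratio was -1.14 ± 0.71 in irradiated cells (limma adjusted p = 0.0951) and -1.25 ± 0.80 in bystander cells (adjusted p = 0.0889), with larger falls in experiments 3 and 4 than in 1 and 2. Leaving out experiment 2 made 2 histone probes called in irradiated cells, where 1.59% of all probes were. Leaving out any other experiment gave 0, where at most 0.559% of all probes were called, and in bystander cells leaving out any experiment gave 0, where at most 0.424% were.

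HIST1H2AC was below control at the other times as well, without a call. At 6 hours the ratio was -1.09 ± 1.14 in irradiated cells (limma adjusted p = 0.14) and -1.40 ± 1.41 in bystander cells (adjusted p = 0.23), and neither treated group overlapped the control group. At the other 4 times the ratio lay between -0.80 and -0.46. The second HIST1H2AC probe was well above background on 21 arrays and was not tested. The other 17 H2A probes had no call at 4 hours, and the H2A median was -0.13 in irradiated and -0.29 in bystander cells.

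H2B genes named in any case had no call at 4 hours. HIST1H2BD by its brightest probe had -0.16 ± 0.27 in irradiated (limma adjusted p = 0.674) and -0.54 ± 0.31 in bystander cells (adjusted p = 0.202), and by the other -0.54 ± 0.44 and -0.69 ± 0.59. HIST2H2BE, an H2B gene known to give polyadenylated mRNA as well, had -0.41 ± 0.25 (adjusted p = 0.3) and -0.56 ± 0.43 (adjusted p = 0.2) by the probe that shares 96.4% of 56 bases with HIST1H2BN. Its other passing probes, which have no close match, were not called either, and in bystander cells they too lay below 0.

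At 6 hours 3 of 83 probes were called in irradiated cells (3.61%), where 10.7% of all probes were, 5.55% higher and 5.13% lower. In bystander cells none of the 83 was called, where 0.277% of all probes were, and 18 of the 83 (21.7%) had an unadjusted p below 0.05, where 14.3% of all probes did. The largest of the 3 called ratios was that of H1F0, which encodes H1.0, the linker histone of cells that have stopped dividing. Its levels were 10.89, 10.71, 11.37 and 10.97 in control, 9.89, 10.06, 10.72 and 9.21 in irradiated and 9.89, 10.68, 11.62 and 10.04 in bystander cells. The irradiated level of experiment 3 lay just inside the control range, and the other 3 lay below it. The ratio was -1.02 ± 0.52 in irradiated cells (limma adjusted p = 0.0473) and -0.43 ± 0.63 in bystander cells (adjusted p = 0.41), and the difference between the 2 treatments was not called. H1FX, another solitary H1 gene, had -0.61 ± 0.40 in irradiated cells, just outside the threshold (adjusted p = 0.103).

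HIST2H2AA4 and HIST2H3D, neighbours in the cluster on chromosome 1, were higher in irradiated cells at 6 hours. The HIST2H2AA4 probe with the stem-loop had levels of 12.71, 13.42, 12.60 and 12.72 in control, 13.53, 13.68, 13.21 and 13.30 in irradiated and 13.46, 13.44, 12.62 and 12.81 in bystander cells, and the control of experiment 2 lay among the irradiated values. The ratio was 0.57 ± 0.23 (limma adjusted p = 0.0703), while the second probe, with 0.36 ± 0.73 (adjusted p = 0.44), was not called. HIST2H3D had 13.35, 13.75, 13.60 and 13.40 in control and 14.03, 13.89, 13.91 and 14.27 in irradiated cells, with no overlap and a ratio of 0.50 ± 0.33 (adjusted p = 0.0935). These are values of the HIST2H3D probe whose sequence is not shown, and the shown one had 0.49 ± 0.33 and was not called (adjusted p = 0.101). Leaving out experiment 1 or 4 gave 0 histone calls at 6 hours, where 2.36% and 0.824% of all probes were called. Leaving out 2 gave 2 (5.05% of all probes) and leaving out 3 gave 7, of which 6 were higher (7.45% of all probes). Without scaling 12 were called and 0 of them were higher, against 2 of 3 with it, where 17.6% of all probes were called.

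At 24 hours no histone probe was called. Of all probes 0.166% were called in irradiated and 0.0198% in bystander cells, and unadjusted p-values below 0.05 were had by 4 and 6 of the 83 histone probes (4.82% and 7.23%), where 13.2% and 11.1% of all probes had one. The widest ratio was that of HIST1H3I, with 0.98 ± 1.43 in irradiated cells (limma adjusted p = 0.36). It rested on 1 control array, since the control levels were 10.10, 8.06, 9.99 and 10.59. HIST1H1C, a linker histone gene that also gives polyadenylated mRNA, had 0.07 ± 0.24 at this time and no call in any of the 12 comparisons.

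**Figure D4:**
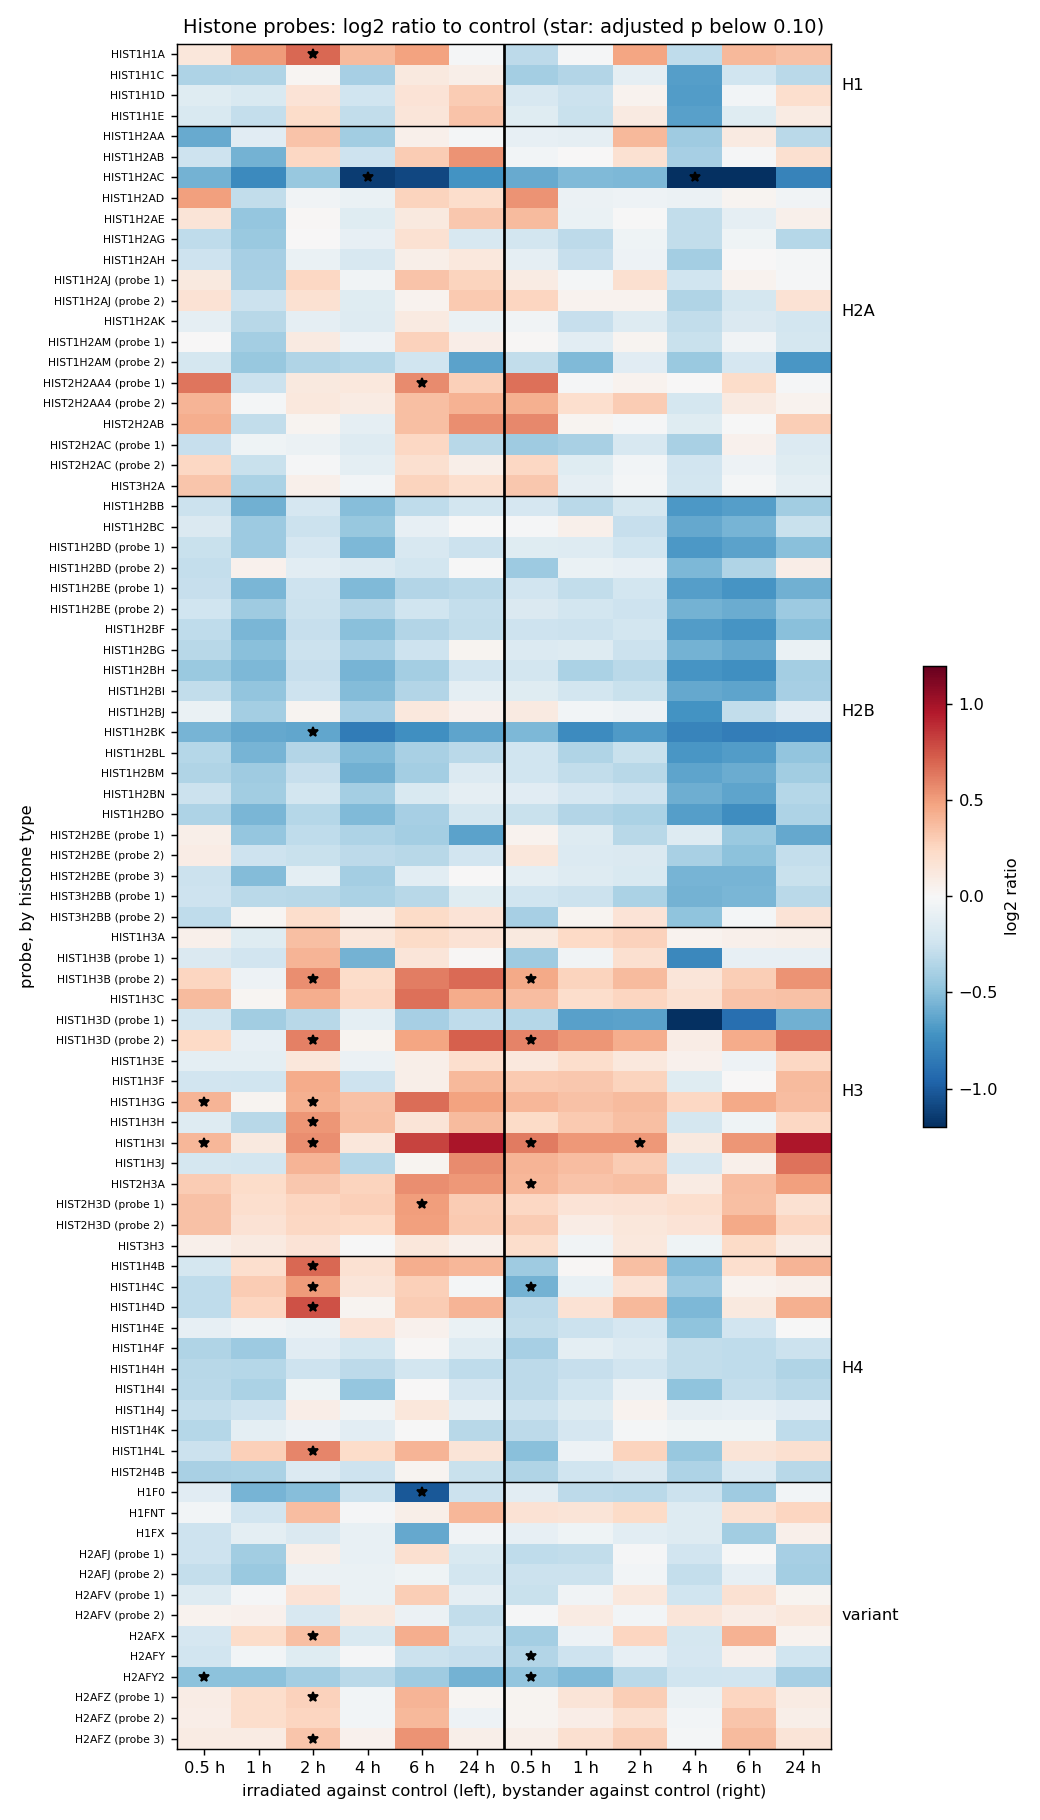
Log2 ratio to control of the 83 histone probes that passed the filter (rows, by type, with probes of a gene numbered) in irradiated cells (left 6 columns) and bystander cells (right 6 columns) at 6 times, with red above and blue below control and stars at calls with an adjusted p below 0.10. The H2B block is blue in nearly every column, the H3 block mostly red apart from 1 HIST1H3D probe, and the 14 stars of irradiated cells at 2 hours are the most in any column.

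Irradiated cells were also compared directly with bystander cells. No histone probe was called at any of the 6 times by limma, where 0.0436% of all probes were called at 2 hours and 0% at the other 5. Unadjusted p-values below 0.05 were had by 4, 11, 4, 2, 2 and 0 of the 83 probes in the order of the time points (4.82%, 13.3%, 4.82%, 2.41%, 2.41% and 0%), where 2.06%, 4.74%, 1.15%, 1.28%, 1.52% and 0.416% of all probes had one. Irradiated cells lay above bystander cells in 32, 22, 63, 72, 73 and 60 of the 83 probes, where they did in 13397, 12692, 12523, 13656, 13628 and 13482 of all 25236. Among the 21 H2B probes they did in 21 at 6 hours (median 0.34) and in 2 at 1 hour (median -0.22), and the probes of a type are not independent. The greater number of calls in irradiated cells at 2 hours is therefore not shown to be a difference from bystander cells.

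Genes that handle histones were looked at as a list of 35, of which 32 were measured by 49 probes. In irradiated cells 4 of the 49 were called at 0.5 hours (3 higher), 2 at 2 hours (both higher) and 4 at 6 hours (3 higher), and in bystander cells 2 at 0.5 hours (1 higher). These are 8.16%, 4.08%, 8.16% and 4.08% of the list, each below the share of all probes called in the same comparison (10.3%, 6.14%, 10.7% and 6.98%). None was called in the other 8 comparisons. SLBP, which binds the stem-loop of histone mRNA, had 0.22 ± 0.23 in irradiated cells at 2 hours (limma adjusted p = 0.28). NPAT, the activator of canonical histone genes, had 0.19 ± 0.49 by one probe and 0.02 ± 0.69 by the other at that time, and neither SLBP nor NPAT was called in any comparison.

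The chaperones that were called at 2 hours were ANP32E, which removes H2A.Z from chromatin, and CHAF1B, a subunit of the assembly factor CAF-1. ANP32E rose by 0.70 ± 0.30 (limma adjusted p = 0.0373) and CHAF1B by 0.74 ± 0.34 (adjusted p = 0.0537). At 6 hours ANP32E had 0.95 ± 0.60 (adjusted p = 0.055), CSTF2, a factor in mRNA 3′ end processing, 0.68 ± 0.30 (adjusted p = 0.0511) and HIRA, a chaperone of H3.3, -0.75 ± 0.61 (adjusted p = 0.0847). At 0.5 hours ATRX (0.77 ± 0.44, adjusted p = 0.0777) and ASF1A (0.61 ± 0.25, adjusted p = 0.0701) were higher and CABIN1 (-0.49 ± 0.07, adjusted p = 0.0514) lower in irradiated cells, and CABIN1 (-0.44 ± 0.21, adjusted p = 0.0736) lower and ZNF473 (0.50 ± 0.24, adjusted p = 0.0995) higher in bystander cells.

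Variant genes outside the naming rule were few. H3F3A, which encodes H3.3, had 5 probes and no call, with ratios between -0.22 and 0.15 throughout. H3F3B, the other H3.3 gene, was called by 1 of 3 probes in irradiated cells at 6 hours (0.56 ± 0.40, limma adjusted p = 0.0801). That is 1 of the 9 probes outside the rule (11.1%), near the 10.7% of all probes called in that comparison. CENPA, the H3 of centromeres, was called in bystander cells at 0.5 hours (-0.73 ± 0.61, adjusted p = 0.0966) and in no other comparison. That too is 1 of the 9 probes (11.1%), where 6.98% of all probes were called and 2.62% were called lower. The uncalled ratios of CENPA went both ways, with -0.74 ± 0.46 in irradiated cells at 4 hours (adjusted p = 0.142), -0.85 ± 1.03 in irradiated cells at 24 hours (adjusted p = 0.399) and 0.78 ± 0.41 in bystander cells at 6 hours (adjusted p = 0.224).

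Genes of S phase and proliferation were also called higher in irradiated cells at 2 and 6 hours. Of 41 probes, 16 (39%) were called higher in irradiated cells at 2 hours and none lower, with a median ratio of 0.47, and 7 (17.1%) were called higher at 6 hours with a median of 0.46, where 3.5% and 5.55% of all probes were called higher. In bystander cells 1 was called higher at 2 hours and 1 at 6, with medians of 0.38 and 0.58, and 2 (4.88%) were called lower at 0.5 hours, where 2.62% of all probes were. Each of the single bystander calls is 2.44% of the list, where 0.198% of all probes were called higher at 2 hours and 0.277% were called in either direction at 6 hours. At 2 hours irradiated cells had ratios of 1.01 ± 0.52 for CDC45L (limma adjusted p = 0.078) and 1.00 ± 0.54 for MCM10 (adjusted p = 0.0783), both parts of the replication machinery, and 0.93 ± 0.52 for RRM2, the small subunit of ribonucleotide reductase (adjusted p = 0.0936). The second probes of MCM10 (0.87 ± 0.53, adjusted p = 0.124) and RRM2 (0.50 ± 0.35, adjusted p = 0.197) were not called. At 6 hours they had 1.18 ± 0.99 for CDC45L (higher in 3 of 4 experiments, adjusted p = 0.0768), 1.11 ± 0.23 for TYMS, which makes thymidylate (adjusted p = 0.0464), and 0.94 ± 0.24 for PCNA, the sliding clamp of DNA polymerase (adjusted p = 0.045). The bystander calls were PLK1 (-0.76 ± 0.60, limma adjusted p = 0.0755) and CCNB1 (-0.45 ± 0.25, adjusted p = 0.0815), both mitotic regulators, at 0.5 hours, RRM1 (0.52 ± 0.19, adjusted p = 0.0815) at 2 hours and the clamp loader subunit RFC3 (1.18 ± 0.61, adjusted p = 0.0916) at 6 hours. The second PLK1 probe was not called (-0.64 ± 1.35, limma adjusted p = 0.379). The part of this list in the histone values was not tested.

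The median ratio of the 14 fibroblast marker probes lay between -0.57 and -0.22 in the 12 comparisons with control, with 10 to 14 of the 14 below 0. Few were called, all of them lower: in irradiated cells 1 (7.14%) each at 0.5, 2 and 6 hours, where 3.67%, 2.64% and 5.13% of all probes were called lower, and in bystander cells 2 (14.3%) at 0.5 hours, where 2.62% were. THY1, a surface glycoprotein of fibroblasts, had -1.05 ± 0.73 in irradiated (limma adjusted p = 0.0436) and -1.09 ± 0.57 in bystander cells at 0.5 hours (adjusted p = 0.0439). PDGFRB, a growth factor receptor, was called in irradiated cells at 2 hours (-0.59 ± 0.47, limma adjusted p = 0.0931) and 6 hours (-0.92 ± 0.48, adjusted p = 0.0367) and in bystander cells at 0.5 hours (-0.73 ± 0.67, adjusted p = 0.0976). Of the markers of other cells, 4 of 8 epithelial, 3 of 7 endothelial and 3 of 8 blood cell probes entered the fits. Called were the surfactant gene SFTPC in irradiated cells (-0.84 ± 0.26, limma adjusted p = 0.0315) and MUC1 in bystander cells (-0.54 ± 0.22, adjusted p = 0.0682) at 0.5 hours, and no endothelial probe at any time. Each is 1 of 4 epithelial probes (25%), where 3.67% of all probes in irradiated and 2.62% in bystander cells were called lower. The second SFTPC probe was not called (-0.65 ± 0.09, limma adjusted p = 0.108), and the keratin gene KRT19 of the same list had uncalled ratios of 0.98 ± 1.09 in irradiated and 0.81 ± 0.87 in bystander cells at 6 hours. Of the 3 blood cell probes that of the lysosomal gene CD68 was called higher in both treatments at 0.5 hours (0.57 ± 0.07 and 0.56 ± 0.16) and in irradiated cells at 6 hours (0.55 ± 0.22), and that of the globin gene HBA1 in irradiated cells at 2 hours (0.75 ± 0.33, limma adjusted p = 0.0975). Each is 33.3% of 3 probes, where 6.62% (irradiated, 0.5 hours), 4.35% (bystander, 0.5 hours), 3.5% (irradiated, 2 hours) and 5.55% (irradiated, 6 hours) of all probes were called higher. At 0.5 hours CD3E, a T cell gene, had -0.26 ± 0.15 in irradiated and -0.02 ± 0.25 in bystander cells and HBA1 had 0.20 ± 1.08 and 0.01 ± 0.71, all uncalled. The part of these markers in the histone values was not tested.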

How the data were processed

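The deposited scanner outputs of 72 one-colour arrays (Agilent Feature Extraction 9.1.3.1, per the file headers) give a background-subtracted intensity for each spot, with no normalization between arrays by the authors. The authors' deposited table of log2 values was an alternative only. Of its 72 columns 66 equal the scanner values of their own array, and the 6 for experiments 3 and 4 at 0.5 hours equal each other's in all 3 groups, which leaves groups and pairs as they are. The genome build of the array annotation is not given in the sources used here, and the promoters carry the build of their RefSeq table.

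Control spots were left out, non-uniform spots set to missing and the spots of a probe averaged. Arrays were scaled to a common 75th percentile, a floor of 5 was set and log2 taken. Probes dim (within 2.6 SD of background) or non-uniform on more than 10% of arrays were removed. At each time point limma 3.58.1 in R 4.3.3 fitted treatment and experiment to 12 arrays, moderating variances along mean intensity, and p-values were adjusted by Benjamini-Hochberg across every probe fitted. The fit was tested on simulated data. The replicate number marks a shared pool of cells, per the methods; 10 to 12 of 12 same-number pairs correlated above 0.1. The 12 arrays at 0.5 hours use a later annotation than the other 60, and a probe named a histone in either counts.

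The members and lists were chosen with earlier results of these data known. Named were 15 histone genes fixed by name, the up to 5 called members of largest ratio in each direction of each comparison, up to 3 called genes of each list, and SLBP, NPAT, H3F3A, H3F3B and CENPA. HIST1H3H, the pair partners shown by sequence and the genes that did not pass were named after their values were seen, and HIST2H2AA4 stands for HIST2H2AA3.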

Additional observations from a re-analysis of the deposited data

Results flagged for a closer look

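Of 164 groups of 4 arrays examined, those of called probes and of the median of each histone type, 5 had 1 array that stood far apart from the other 3. The groups share arrays, and how many of them would stand apart by chance was not tested, so no single one of them is more than a value to look at. The HIST2H2AA4 probe with the stem-loop was at 13.4 in the control cells of experiment 2 at 6 hours, against 12.6 to 12.72 in the other controls. The other 4 were medians over the probes of a type, each taken as the level less the mean of that probe over 72 arrays. The H2B median of bystander cells at 24 hours was 0.512 in experiment 3, against -0.287 to -0.252 in the others. The H3 median of control cells at 6 hours was -1.03 in experiment 1, against -0.157 to -0.0295, and that of bystander cells at 4 hours was 0.386 in experiment 4, against -0.239 to -0.175. The H4 median of irradiated cells at 24 hours was -0.555 in experiment 1, against 0.0121 to 0.0284. What set these arrays apart was not tested.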

How the results depend on the processing

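Counts of histone calls are given in the order irradiated at 0.5, 2, 4 and 6 hours, then bystander at 0.5, 2 and 4 hours, and were 3, 14, 1, 3, 7, 1 and 1. They were 0, 30, 0, 12, 0, 0 and 0 without scaling. They were 0 in all 7 with slide as a fixed block in place of experiment and with no replicate block, and both of these fits leave out the pairing by experiment. With quantile normalization the first was 6. With normexp background the first 4 were 0, 7, 0 and 5. With the authors' table the irradiated count at 0.5 hours was 0 and the bystander counts at 0.5 and 2 hours 2 and 0. With no filter they were 1, 8, 0, 0, 3, 2 and 0, and with the stricter filter the count at 6 hours was 5. Leaving out 1 experiment gave 0 to 0, 0 to 28, 0 to 2, 0 to 7, 0 to 2, 0 to 17 and 0 to 0. Calls over the whole array moved too: at 2 hours in irradiated cells 6.14% of all probes were called, 27.4% without scaling, 2.1% with normexp, 2.29% with no filter, 0.00793% with no replicate block, 0.0674% with slide as a fixed block and 0.0951% to 19.4% with 1 experiment left out. The 30 called probe results kept their direction under all 13 alternatives except without scaling, where 3 turned: H2AFX to -0.0378 and the H2AFZ probes to -0.0686 and -0.118, all in irradiated cells at 2 hours. Called were still 30 of 30 with the stricter filter, 26 with slide as a random block, 25 with quantile normalization, 16 with the authors' table, 15 with normexp, 10 with no filter and 2 without scaling. Leaving out experiment 1, 2, 3 or 4 left 0, 2, 2 and 16 of the 30 called. With no replicate block or with slide as a fixed block, both without the pairing, 0 of the 30 stayed called. Within the 3 slides of a time point the direction held on all 3 for 29 of the 30 and on 2 for HIST1H3H. The comparison of irradiated with bystander cells gave 0 histone calls under every alternative, and the causes of these changes were not tested. The 21 probes that did not pass the filter were well above background on 0 to 59 of the 72 arrays and were not compared between groups here, except with no filter.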
